A study of Mus musculus with 2 samples.

Results

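The Nr4a orphan receptors are a family of 3 related nuclear receptors, Nr4a1 (Nur77), Nr4a2 (Nurr1) and Nr4a3 (Nor1). They were examined here as 3 of the 32285 gene rows of a single-nucleus RNA sequencing experiment on mouse thalamus. The members were selected on values from these same data, namely their level by neuron type and their injury to sham ratio, so those values are given as a description and without a test. The sham library came from C57BL/6J female mice after a sham operation and the injury library from mice of the same strain, sex and age after cortical ablation injury (CAI), in which cortex is removed surgically. Mice were operated at 3 months of age and thalamus of the operated hemisphere was taken 21 days later. Each group was 1 library of nuclei that were pooled in equal numbers from 4 mice and then stained with propidium iodide and sorted, with no mark that separates the mice. No difference between the groups therefore had a replicate check, and all intervals are 95% intervals of counting error only.

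Nr4a receptors have a ligand pocket that is filled by bulky side chains, so their activity is set mainly by how much protein is made. All 3 are immediate early genes: calcium and cAMP signals that reach the transcription factor CREB switch them on within minutes, and the proteins then bind a short DNA element, the NBRE, to regulate other genes. Nr4a1 and Nr4a2 can also pair with retinoid X receptors, whereas Nr4a3 is not known to do so. In some neurons Nr4a2 is in addition a lasting identity factor, best known from midbrain dopamine neurons, and it is known to be expressed in the habenula, a small group of neurons on top of the thalamus.

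Nr4a1 (ENSMUSG00000023034) lies on the plus strand of chromosome 15 at chr15:101254269-101274795, Nr4a2 (ENSMUSG00000026826) on the minus strand of chromosome 2 at chr2:57106830-57124003, and Nr4a3 (ENSMUSG00000028341) on the plus strand of chromosome 4 at chr4:48045153-48086447, in GENCODE M21 on GRCm38. No other gene annotated in this release overlapped any of them, on either strand. Whether reads of unannotated transcripts enter their counts was not examined. All 3 members had an entry in the RefSeq promoter table of GRCm38.p6. The bases before each RefSeq start are shown because a sequence feature shared by the members was found there, with the core letters of the CRE (TGACG, or CGTCA on the other strand), here called a core site, in capitals. The CRE is the DNA element that CREB binds.

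Nr4a1, chr15:101266596-101266845, plus strand: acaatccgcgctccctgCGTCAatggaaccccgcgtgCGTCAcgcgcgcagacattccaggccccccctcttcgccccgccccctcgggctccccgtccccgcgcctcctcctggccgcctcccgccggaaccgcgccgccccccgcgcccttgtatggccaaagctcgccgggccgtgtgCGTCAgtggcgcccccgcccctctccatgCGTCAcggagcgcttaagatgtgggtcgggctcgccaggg
Nr4a2, chr2:57124004-57124253, minus strand: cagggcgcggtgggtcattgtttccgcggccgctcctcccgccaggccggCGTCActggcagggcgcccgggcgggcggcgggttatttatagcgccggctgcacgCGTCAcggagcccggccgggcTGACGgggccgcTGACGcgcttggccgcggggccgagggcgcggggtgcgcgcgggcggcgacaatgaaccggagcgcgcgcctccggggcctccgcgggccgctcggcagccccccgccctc
Nr4a3, chr4:48045055-48045152, plus strand: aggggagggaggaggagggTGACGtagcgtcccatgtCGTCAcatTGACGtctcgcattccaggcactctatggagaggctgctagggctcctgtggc

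Each of the 3 windows of 250 bases before the RefSeq start held 4 core sites. For Nr4a3 only the 98 bases that precede its first GENCODE exon are printed, and they hold 3 of its 4 core sites. Nr4a1 had its core sites from 233 to 40 bases before the start, Nr4a2 from 200 to 111 bases and Nr4a3 from 231 to 147 bases. Among 32851 promoters of the same length, 17.8% held at least 1 core site and 0.137% held at least 4. The core site itself contains CG, and the windows of Nr4a1, Nr4a2 and Nr4a3 were 74.4%, 80% and 63.6% G or C. The promoters compared with were not matched for base composition, so how unusual 4 core sites are in such windows was not tested. Of 34 promoters of 30 other activity-regulated genes, 47.1% held at least 1 and 0 held 4. The full CRE, TGACGTCA, was in none of the 3 windows and in 1.55% of all promoters, and the NBRE, AAAGGTCA, was in none of the 3 and in 1.34%. These matches describe letters in a window and not binding. The RefSeq starts of Nr4a1 and of Nr4a3 lie inside their GENCODE spans, each of which also holds an earlier start.

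The filters left 16373 nuclei in sham and 21777 in injury. Their median depth was 7190 and 6810 UMIs, unique molecular identifiers that stand for RNA molecules. The 2 tables shared 101 barcodes. Nuclei were clustered into neuron types without using the members, and clusters are named below by number and leading genes. Glutamatergic nuclei came from 15 clusters and GABAergic nuclei from 2. Tcf7l2, a transcription factor that marks thalamus and habenula, stood at 585 CPM (UMIs of the gene per 1e+06 UMIs of the class) in the glutamatergic nuclei outside the habenular gate in both libraries. The injury library alone held cluster 25, with the cortical gene Neurod6, and cluster 28, with the dentate genes Prox1 and Dsp, at 280 and 219 nuclei against 0 in sham. GABAergic cluster 21 (Ano2, Prdm16) had 439 injury and 4 sham nuclei, and these 3 clusters were kept out of the classes. All 5 oligodendrocyte markers were higher in injury in each neuron class, and their summed level by 0.65, 1.23 and 0.79 on the log2 scale in other glutamatergic, gated glutamatergic and GABAergic nuclei, and the part of this in the results below was not tested.

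Habenular nuclei were set apart by a gate of at least 3 UMIs over Chat and Slc5a7, which make and take up the transmitter acetylcholine and its precursor, the nicotinic receptor gene Chrna3, and Nwd2. The gate took 2309 sham and 2897 injury glutamatergic nuclei, 14.1% and 13.3% of each library. It was chiefly a gate on Nwd2: 2290 sham and 2862 injury gated nuclei had at least 3 UMIs of Nwd2, and 1672 and 1907 had Nwd2 alone. Pou4f1, a habenular transcription factor that the gate does not use, reached 65.6, 46.8 and 123 CPM in sham clusters 8 (Chat, Chrna3), 9 (Ptprq) and 13 (Pde11a, Tac2). These 3 clusters gave 589, 431 and 489 of the gated sham nuclei. Another 558 came from cluster 6 (Sycp2l, Hpse2), in which Pou4f1 stood at 1.53 CPM and Chat at 0.24 CPM, so the gated nuclei are not all habenular by these markers.

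**Figure D1:**
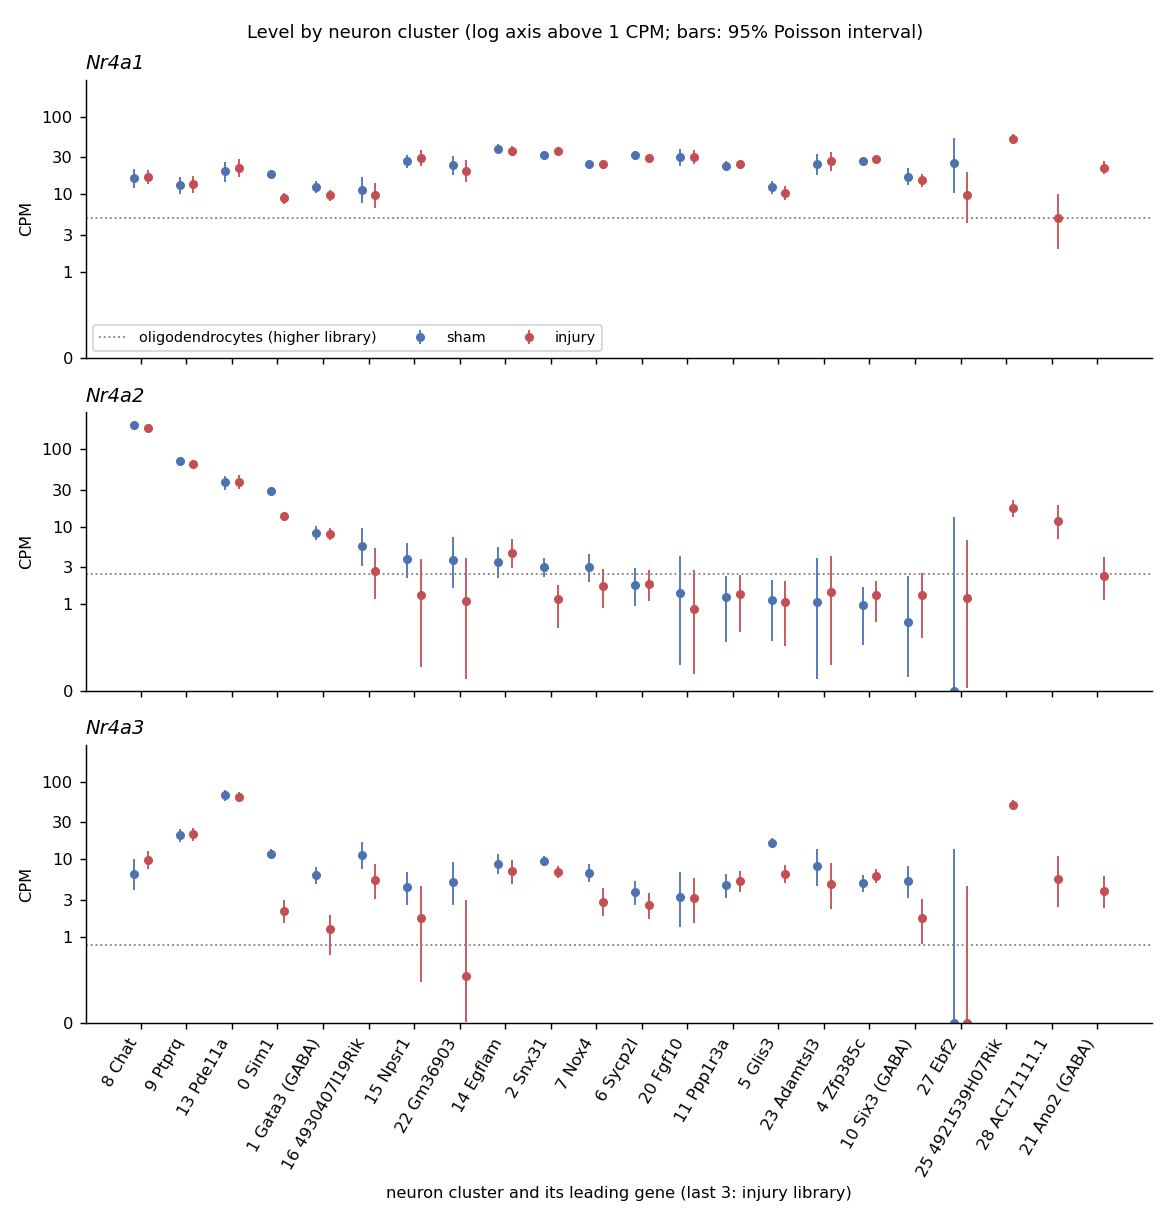
Level of each member (CPM, log axis above 1) in each neuron cluster with at least 50 nuclei, for sham (blue) and injury (red), with bars for the 95% Poisson interval and a dotted line at the higher of the 2 oligodendrocyte levels. Nr4a2 runs from 205 CPM in cluster 8 down to levels under the dotted line, Nr4a3 peaks in cluster 13 at 67.0 CPM in sham, and Nr4a1 runs from 11.5 to 38.8 CPM in sham and from 4.95 to 51.3 CPM in injury.

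Nr4a2 was the member with the sharpest pattern. In the sham library it was highest in cluster 8, the cholinergic habenular cluster, at 205 CPM (189 to 222, 625 UMIs in 595 nuclei). Clusters 9, 13 and 0 followed with 70.8 CPM (63.8 to 78.3), 37.4 CPM (30.1 to 45.9) and 29.3 CPM (26.5 to 32.2). Each of these 4 levels lay above the next beyond counting error, although clusters 13 and 0 differed by only 0.36 on the log2 scale (lower bound 0.01). Cluster 1, a GABAergic cluster with Gata3 and Pax3, had 8.38 CPM (6.71 to 10.4). From cluster 1 downward no level lay above its neighbour beyond counting error. Clusters further apart could still differ, as cluster 1 did from cluster 4 (0.99 CPM, 0.53 to 1.69).

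The median over 19 sham neuron clusters was 3.03 CPM for Nr4a2, so cluster 8 stood 67.6 times above it. Oligodendrocytes, which are not expected to express Nr4a2, had 1.09 CPM (0.13 to 3.95) in sham and 2.48 CPM (1.24 to 4.45) in injury. By CPM, the Nr4a2 intervals of most other clusters thus overlapped those of oligodendrocytes. The oligodendrocyte nuclei were much shallower than the neuron classes, at medians of 1558 and 1668 UMIs, so these levels are not compared at equal depth. What part of the Nr4a2 UMIs in those clusters is free RNA was not tested. In the injury library the order began alike, with 190 CPM (179 to 202) in cluster 8, 65.1 CPM (58.3 to 72.6) in cluster 9 and 38.1 CPM (31.0 to 46.5) in cluster 13. The cortex-marker cluster 25 came next, at 17.4 CPM (13.3 to 22.3), and did not lie above cluster 0, at 13.7 CPM (11.96 to 15.6), beyond counting error. Cluster 19 (Scube1, Chat), which was kept out of the classes because 99.8% of its nuclei were called doublets, had Nr4a2 levels of 54.7 CPM (205 sham nuclei) and 53.4 CPM (357 injury nuclei).

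Nr4a3 was highest elsewhere in the habenular clusters. Cluster 13, which also holds the neurokinin gene Tac2, reached 67.0 CPM (57.1 to 78.1) in the sham and 64.2 CPM (54.8 to 74.8) in the injury library. In sham it stood 1.71 above the next cluster on the log2 scale (lower bound 1.36). Cluster 9 followed with 20.4 CPM (16.8 to 24.6), which did not lie above cluster 5 (Glis3; 16.3 CPM, 13.9 to 19.1) beyond counting error. Cluster 8, where Nr4a2 peaked, had 6.56 CPM of Nr4a3 (4.005 to 10.1), which was the median of the 19 sham clusters.

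Finer clustering split cluster 9 into groups that differed in Nr4a3. The group led by Sema3d and Lpar1 (319 sham and 328 injury nuclei) stood at 42.7 and 48.5 CPM. The group led by Kcnh8 (457 and 372 nuclei) stood at 6.68 and 2.66 CPM. Nr4a2 differed less between them, at 81.9 CPM in the Sema3d group and 64.0 CPM in the Kcnh8 group in sham. The habenular clusters thus carried Nr4a2 and Nr4a3 in different proportions.

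Nr4a1 was spread broadly. Its sham levels ran from 11.5 CPM (7.64 to 16.6) in cluster 16 to 38.8 CPM (33.9 to 44.3) in cluster 14 (Egflam), and the highest level was 1.62 times the median of 24.0 CPM. Only 1 of the steps between neighbouring clusters exceeded counting error, the step from cluster 14 to cluster 2. Clusters further apart in the order did differ beyond it, as with cluster 2 (32.4 CPM, 29.9 to 35.1) and cluster 1 (12.3 CPM, 10.2 to 14.6). The habenular clusters 8, 9 and 13 had 16.1, 13.1 and 19.7 CPM, all under the median. In injury the highest level was 51.3 CPM (44.1 to 59.4), in cluster 25, which had no sham nuclei. Oligodendrocytes had 4.37 CPM (1.89 to 8.62) in sham and 4.97 CPM (3.11 to 7.52) in injury.

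Gated nuclei were then set against the other glutamatergic nuclei within each library. Nr4a2 was 60.2 CPM (56.6 to 64.0) in gated and 8.09 CPM (7.48 to 8.74) in other glutamatergic sham nuclei, a log2 difference of 2.90 (2.75 to 3.04). In injury the levels were 63.1 and 4.45 CPM and the difference was 3.83 (3.66 to 3.99). Nr4a3 differed by 1.29 (1.09 to 1.48) in sham and 1.73 (1.52 to 1.94) in injury, also higher in gated nuclei. Nr4a1 went the other way, by -0.55 (-0.73 to -0.38) and -0.46 (-0.61 to -0.31). With habenular nuclei taken as clusters 8, 9 and 13 the Nr4a2 difference was 3.89 in sham and 4.89 in injury. Leaving out cluster 0 gave 3.94 in sham, and the difference was larger in injury too.

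**Figure D2:**
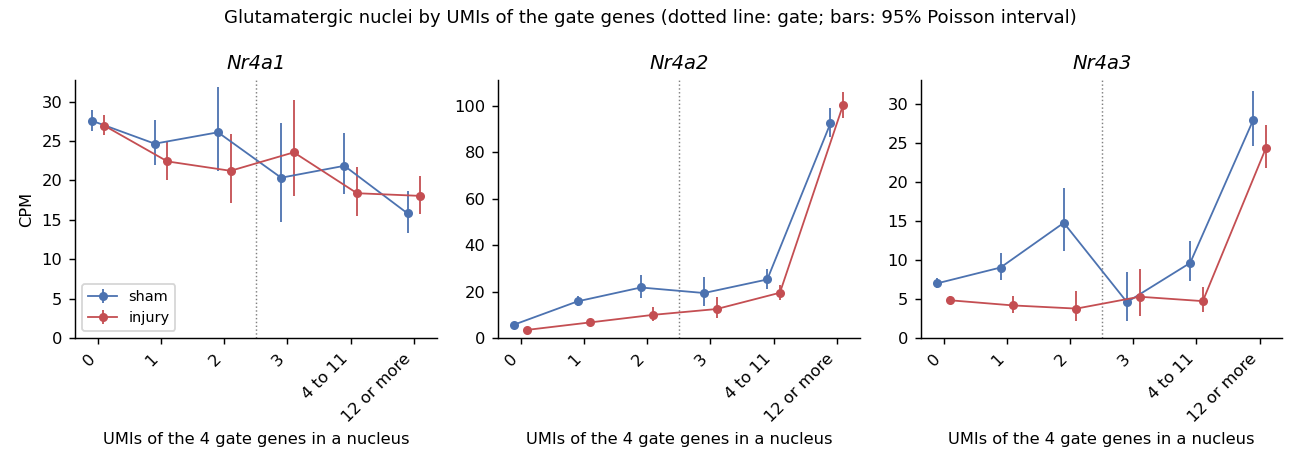
Level of each member (CPM, linear axis) in glutamatergic nuclei grouped by the UMIs of the 4 gate genes, for sham (blue) and injury (red), with bars for the 95% Poisson interval and a dotted line at the gate. Nr4a2 stays under 30 CPM up to 11 gate UMIs and reaches 92.4 CPM in sham and 100.3 CPM in injury above that.

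For Nr4a2 the nuclei next to the gate on either side did not differ beyond counting error. Just outside it, in 404 sham nuclei with 2 gate UMIs, Nr4a2 had 21.8 CPM (17.3 to 27.1), and just inside, in 241 nuclei with 3, it had 19.4 CPM (13.997 to 26.3). In injury the corresponding values were 10.1 CPM (7.33 to 13.5) in 461 nuclei and 12.5 CPM (8.63 to 17.6) in 280 nuclei. Nr4a2 was far higher in nuclei with 12 or more gate UMIs, at 92.4 CPM (86.3 to 98.9) in sham and 100.3 CPM (94.9 to 106) in injury. Nr4a3 had 14.8 CPM (11.2 to 19.3) at 2 and 4.62 CPM (2.22 to 8.50) at 3 gate UMIs in sham, lower just inside the gate with intervals that did not overlap, and 28.04 CPM (24.7 to 31.7) at 12 or more. In injury it had 3.797 CPM (2.21 to 6.08) at 2 and 5.32 CPM (2.91 to 8.93) at 3. Nr4a1 was lower with more gate UMIs, from 27.6 CPM in sham nuclei without any gate UMI to 15.8 CPM in those with 12 or more.

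To see how the members differed after CAI, their levels were compared between the libraries in each neuron class. In other glutamatergic nuclei Nr4a2 had 648 UMIs in sham (8.09 CPM) and 379 in injury (4.45 CPM), a log2 ratio of -0.86 (-1.05 to -0.68). Nr4a3 had 617 and 400 UMIs there (7.70 and 4.70 CPM), a ratio of -0.71 (-0.90 to -0.53). Nr4a1 had 2170 and 2205 UMIs (27.1 and 25.9 CPM), a ratio of -0.06 (-0.15 to 0.02). Nr4a2 and Nr4a3 were thus lower in the injury library, past a log2 fold of 0.5. The unweighted mean over clusters for Nr4a2, at -0.46, did not pass this fold, nor did Nr4a3 without cluster 0, at -0.41. All 3 members had at least 50 UMIs in each class. Of 18561 genes with as many in this class, 3.67% lay at or below -0.5 and 4.69% at or above 0.5. Since the ratio chose the members, nothing is read from this count.

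In gated nuclei, Nr4a2 had 60.2 CPM in sham (1038 UMIs) and 63.1 CPM in injury (1458 UMIs), a log2 ratio of 0.07 (-0.05 to 0.18). Nr4a3 had 18.8 and 15.6 CPM, with a ratio of -0.27 (-0.49 to -0.05), and Nr4a1 18.5 and 18.8 CPM, with a ratio of 0.03 (-0.19 to 0.24). None of the 3 members passed the fold of 0.5 there, where 3.24% of 15349 genes lay at or below -0.5 and 4.35% at or above 0.5. The sign of the Nr4a2 ratio depended on how nuclei were weighted. It was -0.13 as an unweighted mean over clusters and -0.06 (-0.23 to 0.11) in nuclei with a Slc17a6 UMI, but 0.22 (0.04 to 0.39) in nuclei thinned to 3000 UMIs and 0.15 (0.04 to 0.27) over clusters 8, 9 and 13. Cluster 8, where Nr4a2 was highest, gave 589 of the 2309 gated nuclei in sham and 983 of the 2897 in injury. The interval of the Nr4a3 ratio included 0 in 6 of the 15 alternatives that gave one. Among them the ratio was -0.11 (-0.35 to 0.12) over clusters 8, 9 and 13, -0.18 (-0.41 to 0.04) without cluster 0 and -0.0016 (-0.21 to 0.21) with the clusters of 1 library included.

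GABAergic nuclei showed the largest ratio of the 9 pairs of member and class. Nr4a3 had 85 UMIs in 2000 sham nuclei (6.05 CPM, 4.83 to 7.48) and 33 UMIs in 3293 injury nuclei (1.42 CPM, 0.98 to 1.99), a log2 ratio of -2.09 (-2.72 to -1.50). Its injury level was close to the 0.90 CPM (0.25 to 2.31) of injury oligodendrocytes, whose nuclei were shallower. Nr4a1 had 13.5 and 11.3 CPM, a ratio of -0.26 (-0.53 to 0.02), and Nr4a2 had 6.33 and 6.18 CPM, a ratio of -0.03 (-0.43 to 0.36). Here 3.6% of 15371 genes lay at or below -0.5 and 5.97% at or above 0.5.

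**Figure D3:**
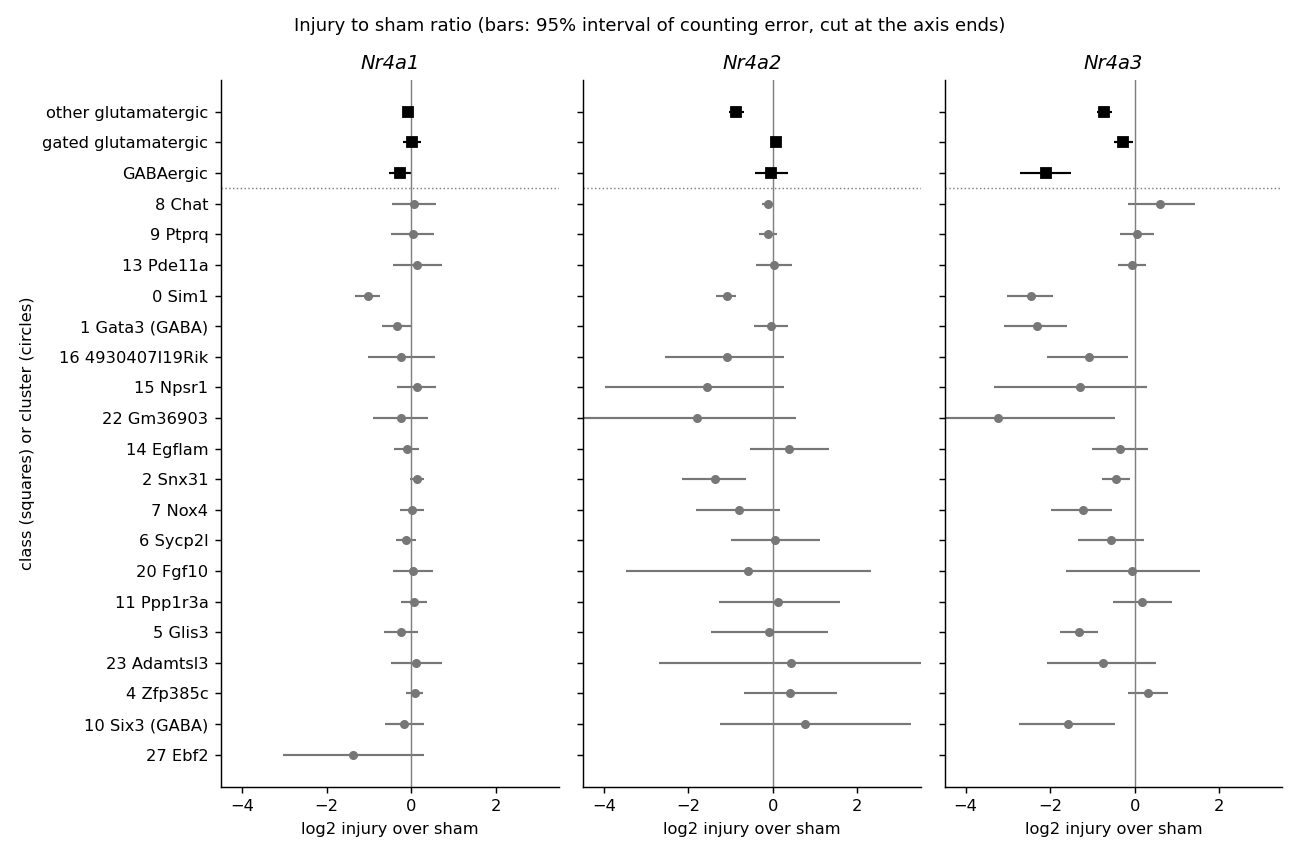
Injury to sham log2 ratio of each member in the 3 neuron classes (squares) and in each neuron cluster with at least 50 nuclei and 1 UMI in each library (circles), with bars for the 95% interval of counting error, cut at the ends of the axis. The Nr4a1 points lie near 0 apart from clusters 0 and 27, and the Nr4a3 points lie to the left of 0 in 14 of 18 clusters.

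Across single clusters Nr4a3 had an interval below 0 in 8 of 18 and above 0 in none, with a median ratio of -0.65. Clusters 5 and 22, which were kept out of the classes, are among the 8. Nr4a2 had an interval below 0 in 2 of 18 clusters and Nr4a1 in 1 of 19, with medians of -0.09 and 0.02. Many Nr4a2 counts were low, as in cluster 4 with 13 and 20 UMIs, so few of its intervals could leave out 0. Of all genes, 23.6%, 14.4% and 14.8% had an interval below 0 in other glutamatergic, gated and GABAergic nuclei. No such share was counted for single clusters. Since the ratio chose the members, nothing is read from these counts, and a difference between members was not tested. The 2 clusters with an interval below 0 for Nr4a2 were cluster 0 and cluster 2, the latter with 3.03 and 1.17 CPM and a ratio of -1.38 (-2.16 to -0.64). Neither level of cluster 2 lay above the oligodendrocyte interval (0.13 to 3.95 CPM in sham, 1.24 to 4.45 CPM in injury). By count, cluster 2 had 56 Nr4a2 UMIs in 1795 sham nuclei and 22 in 1676 injury nuclei. Oligodendrocytes, which were shallower, had 2 in 1016 and 11 in 2337 nuclei. What part of the Nr4a2 UMIs of cluster 2 is free RNA was not tested. In the habenular clusters 8, 9 and 13 every interval included 0 for all 3 members: the Nr4a2 ratios there were -0.11, -0.12 and 0.03 and the Nr4a3 ratios 0.60, 0.06 and -0.06. Finer clustering gave exceptions in both directions. The Kcnh8 group of cluster 9 had a Nr4a3 ratio of -1.32 (-2.70 to -0.10) on 22 and 8 UMIs. In the Zfp385c group of cluster 4 (530 sham and 601 injury nuclei) Nr4a3 was higher in injury, with 4.38 and 9.10 CPM and a ratio of 1.06 (0.42 to 1.72), and so was Nr4a1, with a ratio of 0.37 (0.07 to 0.67). The Pth2r group of cluster 2 had a Nr4a1 ratio of 0.28 (0.02 to 0.53), a Nr4a2 ratio of -1.60 (-2.87 to -0.48) and a Nr4a3 ratio of -0.83 (-1.35 to -0.32). The part of free RNA in the Nr4a2 levels of this group, 3.72 and 1.23 CPM, was not tested either.

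Cluster 0 (Sim1, Lmx1a, Ttc6) was, of the 19 clusters, the one with an interval below 0 for all 3 members. It held 1917 sham and 2189 injury nuclei. Nr4a1 had 18.2 and 8.92 CPM there, a log2 ratio of -1.03 (-1.33 to -0.74). Nr4a2 had 29.3 and 13.7 CPM, a ratio of -1.10 (-1.34 to -0.86), and Nr4a3 had 11.7 and 2.14 CPM, a ratio of -2.45 (-3.02 to -1.93). At finer clustering, the part of it led by Lmx1a and Ttc6 (1704 sham and 1665 injury nuclei) had ratios of -1.03, -1.04 and -2.53. Another finer group that drew 34.6% of its nuclei from cluster 0, led by Oxt and Sim1 (619 and 1507 nuclei), had intervals that included 0 for Nr4a1 (-0.50, -1.21 to 0.25) and Nr4a2 (-0.66, -1.70 to 0.46), and a Nr4a3 ratio of -1.85 (-2.81 to -0.89). For Nr4a1, finer clustering also gave an interval below 0 in the Gata3 group of cluster 1, with a ratio of -0.39 (-0.75 to -0.03), and in a group drawn mostly from cluster 4 and led by 2010110G14Rik, with -0.39 (-0.71 to -0.08).

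Cluster 0 held 20.9% of the other glutamatergic nuclei in sham and 22.7% in injury, but 57.1% and 48.5% of their Nr4a2 UMIs. Without it, the ratio of other glutamatergic nuclei was -0.58 (-0.85 to -0.31) for Nr4a2, on levels of 4.12 and 2.76 CPM, and -0.41 (-0.61 to -0.21) for Nr4a3, on 6.97 and 5.26 CPM. Nr4a3 was then within the fold of 0.5. The Nr4a2 injury level of 2.76 CPM lay inside the interval of injury oligodendrocytes (1.24 to 4.45 CPM), whose nuclei were shallower. The part of free RNA in this level was not tested. For Nr4a1 the ratio without cluster 0 was 0.03 (-0.06 to 0.12), and in nuclei thinned to 3000 UMIs with cluster 0 kept it was -0.21 (-0.37 to -0.05).

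Nr4a3 was also lower in injury in the GABAergic cluster 1, with 6.34 and 1.27 CPM and a ratio of -2.32 (-3.10 to -1.59), and in GABAergic cluster 10 (Six3), with 5.27 and 1.78 CPM and a ratio of -1.57 (-2.73 to -0.47). Cluster 5, which was kept out of the glutamatergic class, had 16.3 and 6.59 CPM and a ratio of -1.31 (-1.76 to -0.87). Cluster 7 (Nox4) had 6.72 and 2.87 CPM, and cluster 2 (Pth2r, C6) had 9.52 and 6.99 CPM with a ratio of -0.45 (-0.78 to -0.11). Clusters 4 (Prkcd) and 11 (Adamts9) had intervals that included 0, with ratios of 0.31 (-0.16 to 0.79) and 0.18 (-0.50 to 0.88). Cluster 22 had a ratio of -3.25 on 11 and 1 UMIs, with an interval from -8.67 to -0.46. Cluster 16 had a ratio of -1.09 (-2.07 to -0.15) on 28 and 16 UMIs. In nuclei thinned to 3000 UMIs the interval included 0 in clusters 2, 10 and 16, where the ratio of cluster 16 was -0.21 (-1.79 to 1.33) and that of cluster 10 -2.75 (-8.38 to 0.58). That Nr4a3 differed between classes in its ratio was not tested.

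**Figure D4:**
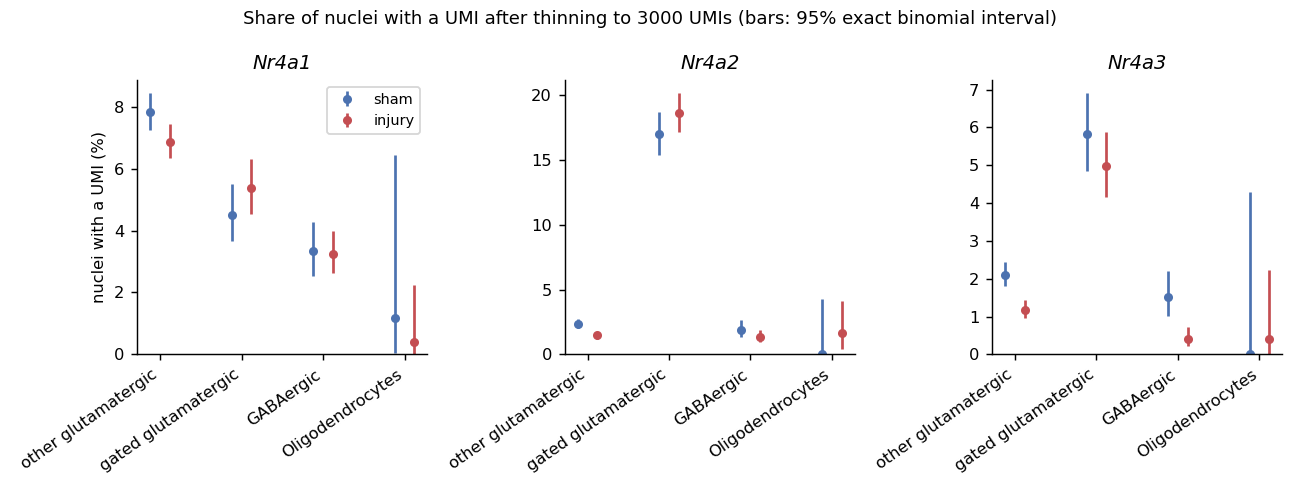
Share of nuclei with at least 1 UMI of each member (percent) after each nucleus was thinned to 3000 UMIs, for sham (blue) and injury (red), with bars for the 95% exact binomial interval. Nr4a2 is found in 17.0% of gated sham and 18.6% of gated injury nuclei, and the oligodendrocyte values rest on 84 and 247 nuclei.

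The members were sparse in single nuclei. In gated sham nuclei (median 6343 UMIs) 27.7% had a Nr4a2 UMI, against 0.197% of oligodendrocytes (median 1558 UMIs). At an equal depth of 3000 UMIs the share in sham was 17.0% (15.4 to 18.7) in gated, 2.37% (2.05 to 2.73) in other glutamatergic and 1.92% (1.33 to 2.67) in GABAergic nuclei. The cholinergic cluster 8 reached 44.3% (39.8 to 48.8) in sham and 43.3% (39.8 to 46.8) in injury. In injury, 1.47% of other glutamatergic and 1.35% of GABAergic nuclei had a Nr4a2 UMI at this depth, against 1.62% (0.44 to 4.09) of the 247 oligodendrocytes deep enough to be thinned. Over all nuclei the injury Nr4a2 level was above the 2.48 CPM (1.24 to 4.45) of oligodendrocytes in GABAergic nuclei, at 6.18 CPM (5.22 to 7.28), and in cluster 0. No order is therefore read from these low shares.

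Nr4a3 UMIs at equal depth were found in 2.11% (1.81 to 2.45) of sham and 1.18% (0.96 to 1.44) of injury other glutamatergic nuclei. In GABAergic nuclei the shares were 1.52% (1.01 to 2.21) and 0.42% (0.22 to 0.73). Injury oligodendrocytes had 0.40% (0.01 to 2.23) on 1 of 247 nuclei, an interval that covers both GABAergic shares. In cluster 13 they were 17.3% (13.6 to 21.4) and 17.1% (13.5 to 21.2). For Nr4a1 the shares of other glutamatergic nuclei were 7.85% (7.27 to 8.46) and 6.88% (6.34 to 7.44). Left out as shallower than 3000 UMIs were 403 sham and 434 injury other glutamatergic, 246 and 305 gated, 226 and 410 GABAergic nuclei and 932 and 2090 oligodendrocytes.

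A few nuclei held many UMIs. In other glutamatergic nuclei, 9 sham nuclei and 1 injury nucleus had at least 5 Nr4a2 UMIs, with a highest count of 12 in sham and 5 in injury. For Nr4a3 these numbers were 6 and 1 nuclei, with highest counts of 12 and 6. For Nr4a1 they were 1 and 11 nuclei, higher in injury. In gated nuclei 12 sham and 21 injury nuclei had at least 5 Nr4a2 UMIs.

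Co-detection was then examined in nuclei thinned to 3000 UMIs, against the number that the shares of each cluster would give if the genes were found independently. In other glutamatergic sham nuclei, Nr4a2 and Nr4a3 were found together in 15 nuclei against 4.45 expected, a ratio of 3.37 (1.89 to 5.56). Nr4a1 and Nr4a3 were together in 26 nuclei against 13.03, a ratio of 1.995 (1.30 to 2.92). Nr4a1 and Nr4a2 were together in 17 nuclei against 10.7, a ratio of 1.59 (0.92 to 2.54), with an interval that includes 1. With Fos, the classic immediate early gene, the ratio was 5.05 (2.69 to 8.64) for Nr4a3 on 13 nuclei, 2.86 (1.81 to 4.29) for Nr4a1 on 23 nuclei and 2.66 (1.27 to 4.89) for Nr4a2 on 10 nuclei. In this class each member was thus found with Fos more often than this expectation, and so were 2 of the 3 pairs of members. In gated sham nuclei, of which only 18 had a Fos UMI, the intervals of all 3 members with Fos included 1. The ratio was 3.79 (0.78 to 11.1) for Nr4a1 on 3 nuclei. For Nr4a2 it was 2.22 (0.27 to 8.03) and for Nr4a3 4.30 (0.52 to 15.5), on 2 nuclei each. These counts are too few to show a difference from other glutamatergic nuclei. In GABAergic sham nuclei only the interval of Nr4a1 with Fos left out 1 (4.59, 1.49 to 10.7, on 5 nuclei). Nr4a2 was found with Fos in 0 nuclei there, against 0.69 expected.

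In gated sham nuclei the intervals of all 3 pairs of members included 1. Nr4a2 and Nr4a3 were found together in 17 nuclei against 17.8 expected (0.96, 0.56 to 1.53), Nr4a1 and Nr4a2 in 19 against 14.8 (1.29, 0.77 to 2.01), and Nr4a1 and Nr4a3 in 5 against 4.85 (1.03, 0.33 to 2.40). In injury the Nr4a2 and Nr4a3 ratio of gated nuclei was 0.69 (0.40 to 1.11). In other glutamatergic injury nuclei Nr4a2 and Nr4a3 were together in 1 nucleus against 1.01 expected, too few to show a difference from sham. Fos and Nr4a3 were together there in 4 nuclei against 0.436 (9.17, 2.499 to 23.5). The intervals of the other member pairs with Fos included 1 in injury, with 3 nuclei against 2.41 for Nr4a1 (1.25, 0.26 to 3.64) and 1 nucleus against 0.23 for Nr4a2 (4.35, 0.11 to 24.2). Whether the ratios differ between the classes was not tested.

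The genes most like each member were sought over the 19 sham neuron clusters among 14564 genes, by the correlation of log2(CPM + 1). These are descriptions over clusters of 1 library, which share depth and free RNA. For Nr4a2 they were Crnde (r = 0.95), Irx2, Gm2164, Irx1 and Rdh5 (each 0.92). Irx1 and Irx2 are homeobox transcription factors that pattern brain regions. Over the same clusters in injury the values stayed at 0.94, 0.94, 0.94, 0.95 and 0.88. Of the gate genes, Nwd2 came at rank 70 (0.81), Slc5a7 at rank 105 (0.80), Chat at rank 567 (0.69) and Chrna3 at rank 1163 (0.61).

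For Nr4a3 the most similar genes were Picalm, which helps assemble clathrin coats (0.89), D230022J07Rik (0.89), Rgs12, a regulator of G protein signalling (0.86), C730034F03Rik (0.86) and Syne2, a nuclear envelope protein (0.86). In injury their values were lower, at 0.50, 0.03, 0.36, 0.01 and 0.45. Genes were picked by their sham values only, so lower values in injury can follow from the choice, and no change is read from them. For Nr4a1 the top genes were Adgrd1, an adhesion receptor (0.82), Cmtm7, Plekhg1, E130304I02Rik and Gm10855 (0.76). Their injury values were 0.40, 0.72, 0.85, 0.64 and 0.62. The members were not much like each other: Nr4a2 and Nr4a3 had r = 0.56 in sham and 0.58 in injury, and Nr4a1 had r = -0.43 with Nr4a2 in sham and -0.28 in injury. Between Nr4a1 and Nr4a3 r was -0.38 in sham and 0.19 in injury.

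**Figure D5:**
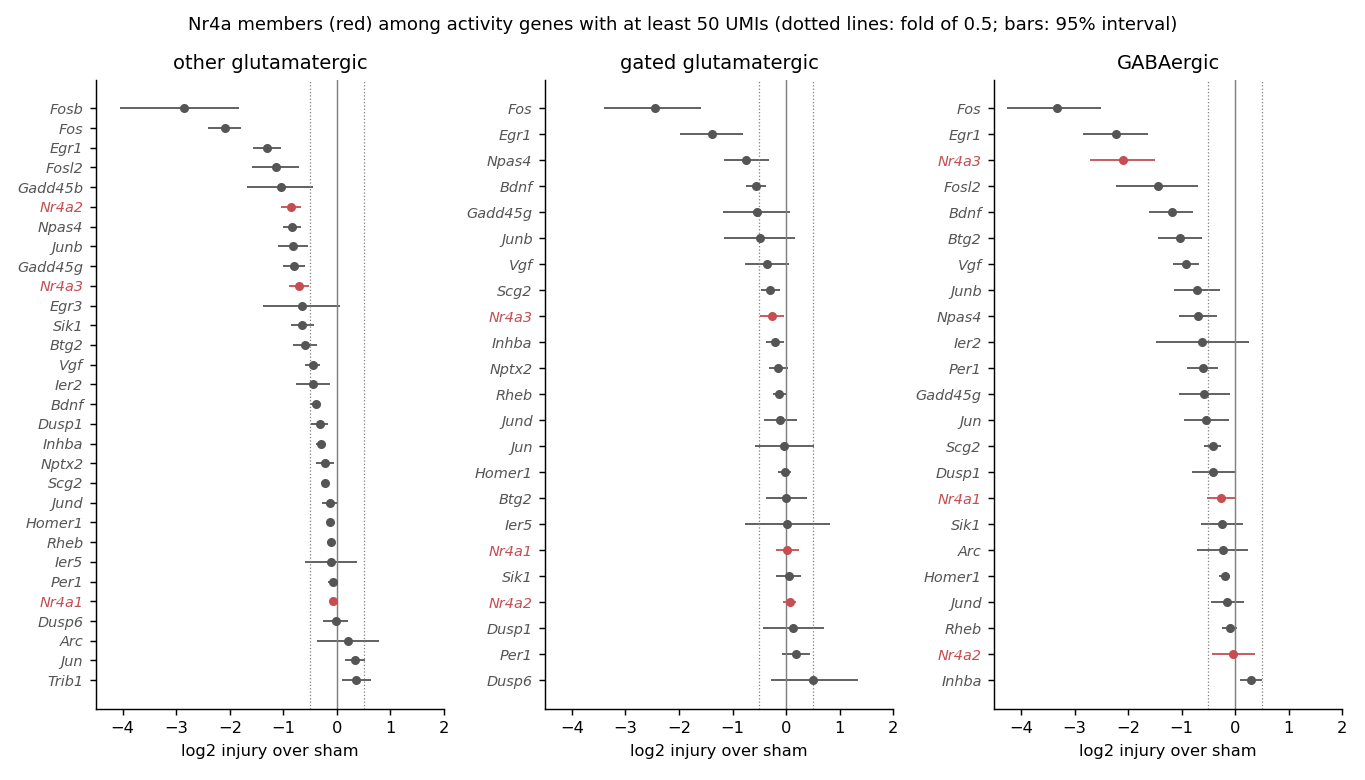
Injury to sham log2 ratio of the Nr4a members (red) and of listed activity-regulated genes with at least 50 UMIs (grey) in each neuron class, with bars for the 95% interval of counting error and dotted lines at the fold of 0.5. Fos lies at -2.09, -2.45 and -3.33 in the 3 classes, and Nr4a1 lies inside the dotted lines in all of them.

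The members were set beside 30 other activity-regulated genes, a list chosen with earlier results of these data known. In other glutamatergic nuclei 27 of them had at least 50 UMIs, of which 11 lay at or below -0.5 and 0 at or above 0.5, against 3.67% and 4.69% of all genes, with a median of -0.40, whereas the median of all genes of the class lay near 0. The AP-1 genes Fosb, Fos and Fosl2 had ratios of -2.85 (-4.04 to -1.83), -2.09 (-2.41 to -1.78) and -1.14 (-1.58 to -0.71), and Junb had -0.82 (-1.09 to -0.54). Other AP-1 genes did not share this: Jun was higher in injury, at 0.34 (0.15 to 0.53), and Jund had -0.13 (-0.28 to 0.02). Trib1, a pseudokinase gene, also lay above 0, at 0.36 (0.09 to 0.63). The zinc finger factor Egr1 had -1.30 (-1.56 to -1.05) and the neuronal factor Npas4 -0.85 (-1.01 to -0.68), close to the -0.86 of Nr4a2. Gadd45b, Gadd45g, Sik1 and Btg2 had ratios of -1.05, -0.80, -0.65 and -0.59, each with an interval below 0. Without cluster 0 7 of 26 lay at or below -0.5 and 1 at or above 0.5.

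In gated nuclei 20 activity genes had at least 50 UMIs, of which 5 lay at or below -0.5 and 1 at or above 0.5, against 3.24% and 4.35% of all genes, with a median of -0.13. Without cluster 0, 3 lay at or below -0.5. Fos had 57 sham UMIs (3.31 CPM) and 14 injury UMIs (0.61 CPM), a ratio of -2.45 (-3.41 to -1.59), and Egr1 had -1.39 (-1.98 to -0.81). Npas4 had -0.74 (-1.16 to -0.33) and Bdnf, a neurotrophin, -0.56 (-0.75 to -0.37). Fos was thus lower in the gated nuclei too, in which Nr4a2 had a ratio of 0.07. How the few Fos UMIs were spread over the gated clusters is not given here, so the 2 ratios may rest on different nuclei. The 1 higher gene, Dusp6, had an interval that included 0, from -0.29 to 1.34.

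In GABAergic nuclei 12 of 20 activity genes lay at or below -0.5 and 0 at or above 0.5, against 3.6% and 5.97% of all genes, with a median of -0.59. Fos had -3.33 (-4.26 to -2.51), Egr1 -2.22 (-2.85 to -1.62), Fosl2 -1.44 (-2.22 to -0.69) and Bdnf -1.19 (-1.60 to -0.78). The -2.09 of Nr4a3 lay between those of Egr1 and Fosl2. The growth inhibitor Btg2 had -1.03 (-1.45 to -0.62) and the secreted peptide gene Vgf -0.91 (-1.16 to -0.67). Junb, Npas4, Per1 and Gadd45g had -0.71, -0.70, -0.61 and -0.57, each with an interval below 0. Jun, which was higher in injury in other glutamatergic nuclei, had -0.54 (-0.96 to -0.12) here. These lists, like the members, were compared within the same 2 libraries.

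Genes that act with the receptors were counted in the same way. Of 11 partner genes, which include the retinoid X receptors, 0 passed the fold in other glutamatergic nuclei and 1 did in each of the other classes: Rxrg, with 1.97 and 3.12 CPM in gated (0.66, 0.05 to 1.29) and 6.47 and 9.53 CPM in GABAergic nuclei (0.56, 0.20 to 0.93), both higher in injury. Of 18 genes of the upstream pathway from calcium and cAMP to CREB, 0 passed the fold in any of the 3 classes, with medians of -0.02, -0.03 and -0.0025. With 3.67% of all genes lower and 4.69% higher past the fold in other glutamatergic nuclei, so few genes of a list this short are near the background. In that class 7 of the 18 upstream genes had an interval below 0 and 6 above 0, against 23.6% and 22.7% of all genes. Of 10 genes described as Nr4a targets, 7 had at least 50 UMIs, with medians of -0.06, 0.03 and -0.04. Among them Bdnf had ratios of -0.40, -0.56 and -1.19 in other glutamatergic, gated and GABAergic nuclei, and it also stands in the activity list. In gated nuclei Th, the enzyme that starts dopamine synthesis, had 17 and 41 UMIs and a ratio of 0.85 with a lower bound of -0.0006, and in GABAergic nuclei Pomc had 0.65 (-0.24 to 1.62). Pomc, a hormone precursor, had -0.55 (-1.07 to -0.03) in other glutamatergic nuclei on 77 and 56 UMIs. Nr4a1 is counted among the targets as well, and the target medians of -0.06 and 0.03 in other glutamatergic and gated nuclei are its own ratios.

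In the clusters found almost entirely in the injury library no ratio is given. Cluster 25, with cortical markers, had 50.2 CPM of Nr4a3 (43.0 to 58.2) in 280 nuclei with a median of 11197 UMIs. Of these nuclei 36.1% had a Nr4a3 UMI, 34.6% a Nr4a1 UMI and 13.2% a Nr4a2 UMI, at their own depth. After thinning to 3000 UMIs the shares were 9.12%, 12.4% and 4.01%. Cluster 28 had 12.02 CPM of Nr4a2 (7.001 to 19.2), 5.66 CPM of Nr4a3 (2.44 to 11.1) and 4.95 CPM of Nr4a1 (1.99 to 10.2). Cluster 21 had 22.1 CPM of Nr4a1 (18.1 to 26.7), 2.29 CPM of Nr4a2 (1.14 to 4.10) and 3.96 CPM of Nr4a3 (2.38 to 6.18) in injury. Whether such nuclei differ after injury cannot be told apart from what tissue each library held.

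Outside neurons the members were counted in few UMIs, at most 22 per class and library. Astrocytes had 1 Nr4a1 UMI in 209 sham nuclei and 2 in 512 injury nuclei, and 0 sham UMIs of Nr4a2 and of Nr4a3, where 3 UMIs would be 6.61 CPM. In injury they had 5 UMIs of Nr4a2 and 1 of Nr4a3. Oligodendrocyte precursors had 20.5 CPM of Nr4a1 in sham (8.84 to 40.3) and 11.6 CPM in injury (5.001 to 22.8), on 8 UMIs each, a ratio of -0.82 (-2.43 to 0.79). The sham level of these precursors was near the sham median of neuron clusters, and a difference between the libraries was not detectable at this depth.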

How the data were processed

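Nuclei of 1 sham and 1 injury pool were sequenced by the authors in droplets. Their processing notes name bcl2fastq, Cell Ranger 6.0.2 and Seurat 4.0. The deposited values are raw UMI counts per gene and nucleus on GRCm38, and whether introns and strand entered the counting is not given in the sources used here. The tables hold 16390 sham barcodes (137850696 UMIs) and 21828 injury barcodes (180106314 UMIs), and 32158 of 32285 rows matched a symbol.

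Nuclei over 2% mitochondrial UMIs (9 and 30) or over 7500 genes (8 and 21) were removed, with a minimum of 200 genes. Libraries were integrated with Seurat 5.3.0 (R 4.3.3) on 1986 features without the members and listed genes, and clustered on 30 components at a resolution of 0.5. Doublets called by scrublet in scanpy 1.11.5 (2179 and 3871) were kept in the classes, and left out as an alternative. UMIs were summed per class and given as CPM with exact Poisson intervals, ratios with exact binomial (Clopper-Pearson) intervals, at 95% (scipy 1.17.1, numpy 2.4.6, pandas 2.3.3). With 1 library per group no test was run. Ratios of listed genes and counts of genes past the fold used genes with at least 50 UMIs over both libraries. Ratios of the members in classes and clusters needed at least 50 nuclei and 1 UMI in each library. The 4 clusters in which most nuclei were called doublets, and clusters of 1 library or with a leading marker of another class, stayed out of the classes. TMM factors came from edgeR 4.0.16 as an alternative. Scripts were tested on simulated data in Python 3.11.15.

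The members and lists were chosen with earlier results of these data known. Named were the 3 members, listed genes past a log2 ratio of 0.5 with an interval without 0 (up to 10 a class), and the 5 genes most correlated with each member among those with at least 200 UMIs in sham neurons. Dusp6, Jun, Jund, Trib1, Th and Pomc in GABAergic nuclei were named after their values were seen.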

Additional observations from a re-analysis of the deposited data

How the results depend on the processing

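No paired analysis was possible because there was only 1 pooled library on each side. No alternative turned a direction whose interval left out 0. Of 132 injury to sham ratios under alternatives, 118 stayed within counting error. Mean CPM over nuclei gave -0.17 for Nr4a1 in other glutamatergic nuclei. Thinning to 3000 UMIs gave -0.21 for Nr4a1 and -0.94 for Nr4a3 in other glutamatergic nuclei, 0.30 for Nr4a1 and 0.22 for Nr4a2 in gated nuclei and -0.49 for Nr4a2 in GABAergic nuclei. The unweighted mean over clusters gave -0.46 and -0.13 for Nr4a2 in other and gated nuclei, and requiring a Slc17a6 UMI gave -0.064 for Nr4a2 in gated nuclei. Chosen after seeing the data, leaving out cluster 0 gave 0.027, -0.58 and -0.41 for Nr4a1, Nr4a2 and Nr4a3 in other glutamatergic nuclei, and including clusters of 1 library gave -0.50 and -0.0016 for Nr4a3 in other and gated nuclei.

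Of the gated to other differences, those of Nr4a3 were 1.57 in sham and 2.11 in injury by mean CPM over nuclei, 1.498 and 2.18 after thinning and 1.51 and 1.95 with a gate of 5 UMIs. Nr4a1 in sham was -0.84 after thinning, and Nr4a2 in sham was 3.05 with a gate of 5 UMIs. With habenular nuclei as clusters in which most nuclei pass the gate, Nr4a1 was -0.22 and -0.17 and Nr4a3 in sham 1.08. With a Slc17a6 UMI required, Nr4a2 was 2.73 and 3.48 and Nr4a3 in sham 0.93. With clusters 8, 9 and 13 as habenular, chosen after seeing the data like the next 2 settings, Nr4a1 was -0.80 and -0.63, Nr4a2 3.89 and 4.89 and Nr4a3 1.85 and 2.45. Including clusters 5 and 22 gave 3.05 for Nr4a2 in sham, and leaving out cluster 0 gave 3.94 and 4.63. The cause of these moves was not tested.

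The number of genes at or below -0.5 and at or above 0.5 moved with the filter. With no filter beyond 1 UMI in each library it was 2353 and 2991 in other glutamatergic, 2020 and 3098 in gated and 2667 and 3171 in GABAergic nuclei, and with at least 200 UMIs it was 402 and 293, 196 and 159, and 230 and 273. Of the activity genes, 7 lay lower and 1 higher in other glutamatergic and 3 lower in gated nuclei without cluster 0, and 0 lay higher in gated nuclei without called doublets; these settings were chosen after seeing the data. Of 31 alternatives for ratios of single clusters, likewise chosen after seeing the data, 30 stayed within counting error, and thinning moved Nr4a3 in cluster 10 to -2.75. Depth limits the single clusters, where Nr4a2 and Nr4a3 often rest on under 50 UMIs.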
